A study of Homo sapiens with 4 samples.

Results

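The HNRNP and SRSF genes encode the best known families of splicing regulators, and they were followed here in 2 human pancreatic cancer cell lines after transfection of a microRNA. All rows whose symbol begins with HNRNP or SRSF were taken, leaving out symbols that end in P plus a digit, which are pseudogenes, and symbols with a hyphen. This gave 37 of 26255 genes, 25 HNRNP and 12 SRSF. The 4 libraries were PSN-1 with a miR-4800-3p mimic, PSN-1 with a scrambled negative control oligonucleotide, MIA PaCa-2 with the mimic and MIA PaCa-2 with the scramble, with 1 library each. The mimic is a synthetic copy of the microRNA delivered by transfection. The sources used here give neither its dose nor the time to harvest nor how many cultures stand behind a library. The stated aim was to find messenger RNAs targeted by miR-4800-3p. The labels call both lines epithelial and derived from a pancreatic tumour. Values are FPKM, the fragments of a gene divided by transcript length and by a measure of library size. They can be compared between genes because they are divided by length. These are bulk values, so a lower level in every cell and a loss from some of the cells cannot be told apart.

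Heterogeneous nuclear ribonucleoproteins (hnRNPs) coat nascent transcripts and often silence exons, while serine/arginine-rich splicing factors (SR proteins, the SRSF genes) bind exonic enhancers and recruit the spliceosome, so the balance between both groups sets many exon choices. SR proteins are phosphorylated by the SRPK and CLK kinases, which controls their nuclear import and their release from nuclear speckles. Many of these genes limit their own level by splicing in an exon that sends the transcript to nonsense-mediated decay.

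The transfected microRNA is shown first because its seed is what a target would have to match. The RefSeq mature sequence of miR-4800-3p (GRCh38.p14, chr4:2250091-2250109, minus strand) is printed with its seed, bases 2 to 8, in capitals.
hsa-miR-4800-3p: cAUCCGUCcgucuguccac
A match to this seed was searched as the 8mer GACGGATA, the 7-mers GACGGAT and ACGGATA and the 6-mer ACGGAT, on the sense strand of the longest annotated 3' UTR and coding sequence of each gene (GENCODE v29, GRCh38). Of the 32 genes of both families measured in both lines, HNRNPA0 alone had a 7-mer or 8mer in its 3' UTR (3.12%), against 239 of 9791 measured genes (2.44%). The 3' UTR of HNRNPA0 has 7498 bases. The median was 2124 bases for the 32 genes, against 1360 for the measured genes, and the site shares were not adjusted for length. In coding sequence, 2 of the 32 had a 7-mer or 8mer (6.25%), against 4.53% of the measured genes. The windows with the matches are shown with the match in capitals.
HNRNPA0, 3' UTR: gaatgtattttGACGGATtagcaaaataaa
SRSF5, coding sequence: caagggatatgGACGGATAagagatattga
SRSF4, coding sequence: tggatctgaagaACGGATAtggttttgtgg
The match in SRSF5 is the full 8mer, with its 6-mer core at base 84 of the coding sequence (gene at chr14:69726900-69772005, plus strand), and that in SRSF4 is a 7-mer with its core at base 104 (gene at chr1:29147743-29181987, minus strand). HNRNPA0 lies at chr5:137745651-137754376 on the minus strand. The log2 changes with the mimic in MIA PaCa-2 and PSN-1 were -0.22 and 0.19 for HNRNPA0, -0.75 and 0.12 for SRSF5 and 0.21 and -0.11 for SRSF4, so the 3 genes with a 7-mer or 8mer did not all have the same sign in either line. A 6-mer or longer match was in the 3' UTR of 3.12% of the 32 genes, against 5.78% of the measured genes, and in the coding sequence of 9.38%, against 12.2%. HNRNPL, whose coding sequence holds the 6-mer alone, was lower with the mimic in both lines (-0.45 for MIA PaCa-2, -0.20 for PSN-1). Use of these sites was not measured. The other 29 measured genes of the families, HNRNPA2B1, SRSF1, HNRNPA3 and SRSF6 among them, had no 7-mer or 8mer in either region.

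Most of these genes were among the abundant messages of both lines. A mean of at least 1 FPKM was reached by 32 genes in both lines, the other 5 reached it in neither, and 26 were at 10 FPKM or more in all 4 libraries. HNRNPA1, a 2-RRM protein that silences exons, was at 423 and 399.8 FPKM in the PSN-1 mimic and scramble libraries and at 251 and 271 FPKM in the MIA PaCa-2 mimic and scramble libraries. HNRNPK, a KH-domain protein that binds C-rich RNA, was at 184 and 179 FPKM in PSN-1 and at 288 and 287 FPKM in MIA PaCa-2, in the same order of libraries. These were the highest genes of the families, HNRNPA1 in PSN-1 and HNRNPK in MIA PaCa-2. HNRNPC, which binds uridine tracts, and HNRNPH1, which binds G-runs, were the other members above 100 FPKM in all 4 libraries. SRSF9 was the most abundant SR gene in each library, at 91.8 and 109 FPKM with the mimic and scramble in PSN-1 and at 109.7 and 109.6 FPKM in MIA PaCa-2. Together the 37 genes took 0.451% and 0.454% of the summed FPKM in the PSN-1 mimic and scramble libraries, and 0.416% and 0.485% in those of MIA PaCa-2.

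The 5 genes below 1 FPKM were the HNRNPC-like copies HNRNPCL1, HNRNPCL2, HNRNPCL3 and HNRNPCL4 and the SR gene SRSF12. HNRNPCL1 and HNRNPCL2 were listed at 0 in all 4 libraries, and SRSF12 was at most 0.0922 FPKM. Some values can be split between copies. The symbol HNRNPA1P10, a pseudogene copy of HNRNPA1, had 255 FPKM with the mimic and 201 FPKM with the scramble in PSN-1 and at 152 and 169 FPKM in MIA PaCa-2, and HNRNPA1L2 is another near-identical copy. The sum of the 3 symbols was 687 against 611 FPKM in PSN-1 (log2 change 0.17) and 406 against 445 FPKM in MIA PaCa-2 (-0.13).

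**Figure D1:**
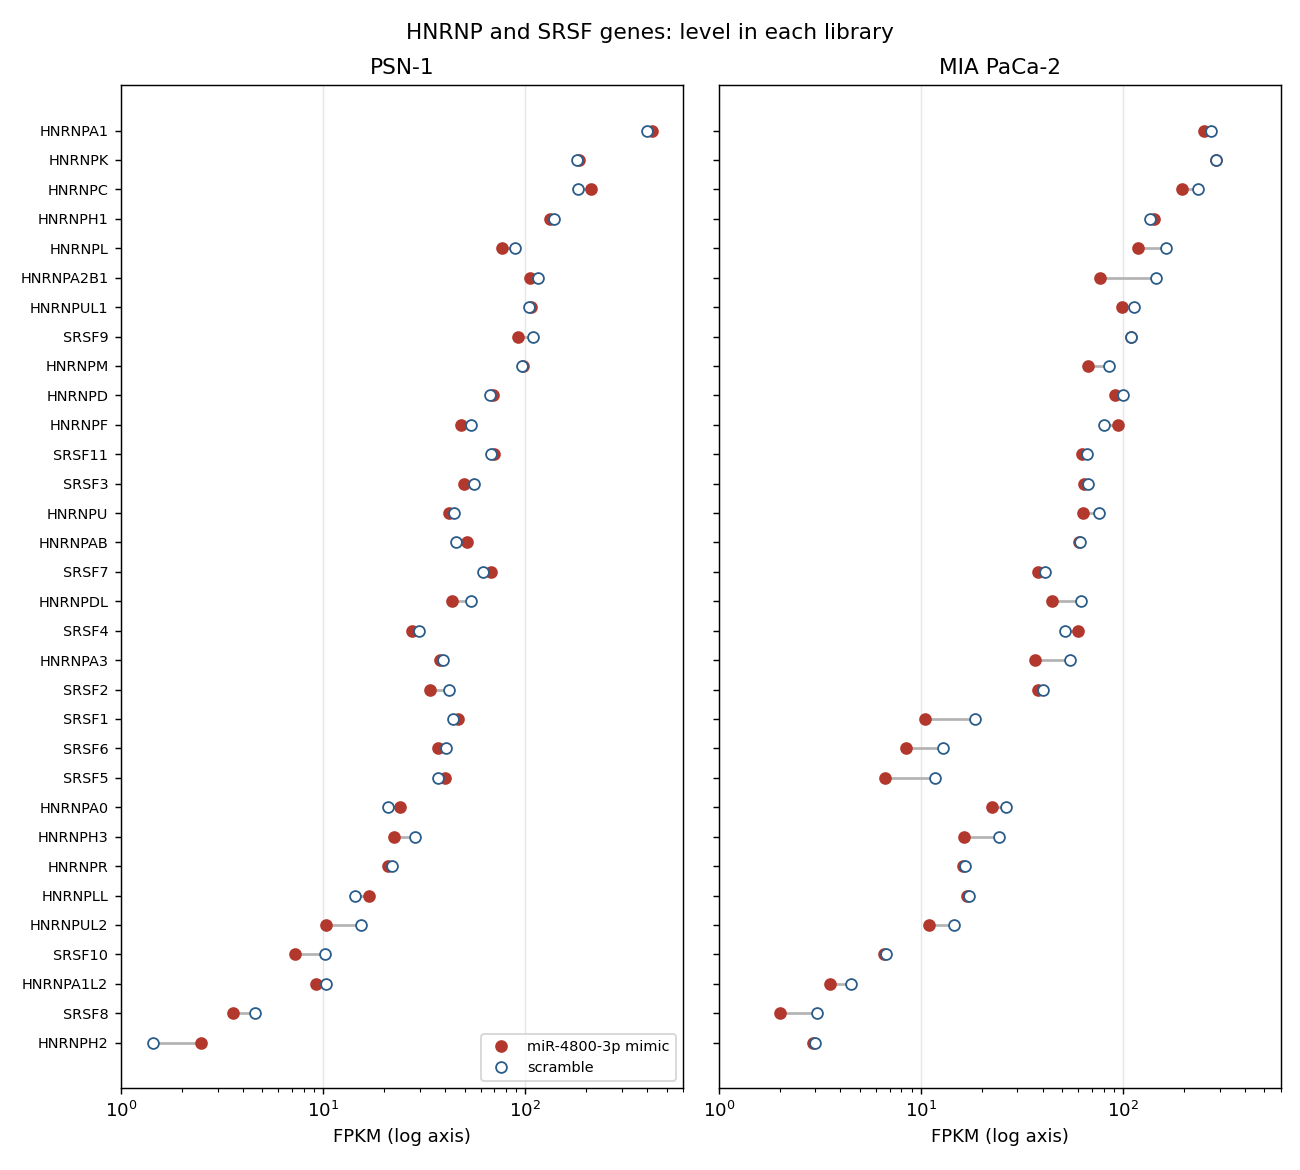
FPKM of the 32 measured HNRNP and SRSF genes (log axis) in PSN-1 and MIA PaCa-2, with filled points for the mimic library and open points for the scramble library, ordered by the mean over the 4 libraries. SRSF1, SRSF5 and SRSF6 sit between 36.8 and 46.5 FPKM in PSN-1 and between 6.65 and 18.6 FPKM in MIA PaCa-2.

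In MIA PaCa-2, most of these genes were lower with the mimic than with the scramble, led by HNRNPA2B1, SRSF1 and SRSF5. Of 32 measured genes 27 were lower by any amount (84.4%), against 47.8% of the 11484 genes measured in that line, and the family median was -0.16 on the log2(FPKM + 1) scale, against 0.01 for all genes. The 3 leading genes were lower past 1.5-fold, and no gene of the families was higher past it. That is 9.38% of the families, against 4.06% of all measured genes lower and 5.43% higher past 1.5-fold. None of the families passed 2-fold, which 0.81% of all genes passed downward and 1.31% upward, and 52.2% of all genes were higher by any amount, against 5 of the 32. With 1 library per group there is no test within a line. A log2 change is the value with the mimic minus that with the scramble, and the scale understates the change of low genes.

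Among the hnRNP genes in MIA PaCa-2, HNRNPA2B1, an abundant 2-RRM protein of splicing and RNA transport, was at 76.8 FPKM with the mimic against 145 FPKM with the scramble (log2 change -0.91, estimated counting SE 0.03). HNRNPA3, its close relative, was at 36.5 against 54.7 FPKM (-0.57, counting SE 0.064), just short of the 1.5-fold mark. HNRNPH3, of the H and F group that binds G-runs, was at 16.4 against 24.2 FPKM (-0.54, counting SE 0.097). These 3 changes exceeded their counting errors, which leave out the error between cultures. HNRNPDL was at 44.7 against 62.1 FPKM (-0.47), and HNRNPL, which binds CA repeats, at 118 against 162 FPKM (-0.45). At the other end, HNRNPF was at 94.2 against 80.6 FPKM (0.22), HNRNPH1 at 142 against 135 FPKM (0.08) and HNRNPK at 288 against 287 FPKM. The 21 measured hnRNP genes had a median of -0.22, and 18 were lower.

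Among the SR genes in MIA PaCa-2, SRSF1, the founding SR protein and a known proto-oncogene, was at 10.5 FPKM with the mimic against 18.6 FPKM with the scramble (log2 change -0.76, counting SE 0.135). SRSF5 was at 6.65 against 11.8 FPKM (-0.75, counting SE 0.208). SRSF6 was at 8.43 against 12.9 FPKM (-0.56, counting SE 0.084). The changes of these 3 were thus larger than their counting error, and their levels were the lowest of the measured SR genes in this line after SRSF8 and SRSF10. SRSF4 was the exception in the other direction, at 60.1 against 51.7 FPKM (0.21). SRSF9 (109.7 against 109.6 FPKM), SRSF3 (-0.06), SRSF2 (-0.08) and SRSF7 (-0.11) lay close to 0, so the median of the 11 measured SR genes was -0.08 although 9 were lower.

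Other measures moved in the same pair of libraries. All 20 proliferation genes were lower with the mimic in MIA PaCa-2 (median -0.59), and their summed level was 548 against 858 FPKM. In PSN-1 19 of the 20 were also lower (median -0.24), with a sum of 492 against 579.6 FPKM. MTRNR2L genes, nuclear copies of mitochondrial ribosomal RNA, took 0.289% against 0.0784% of the summed FPKM in MIA PaCa-2. Their share in PSN-1 was 0.171% against 0.161%. The part of either in the values of the splicing genes was not tested.

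In PSN-1, the same genes showed small changes in both directions. Of 32 measured genes 18 were lower with the mimic (56.2%), against 52.4% of the 12233 genes measured, with a family median of -0.06 against -0.02 for all genes. None passed 1.5-fold, where 3.87% of all genes were lower and 3.17% higher, or 2-fold, where 0.777% were lower and 0.85% higher; 47.6% of all genes were higher by any amount, against 14 of the 32. SRSF1 was at 46.5 against 43.8 FPKM (log2 change 0.08), SRSF5 at 40.0 against 36.8 FPKM (0.12) and HNRNPA2B1 at 105 against 115 FPKM (-0.13). The genes leading in MIA PaCa-2 were thus near 0 in PSN-1, but the difference between the lines could not be tested, since 4 libraries leave no degree of freedom for it.

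The lowest values in PSN-1 belonged to other members. HNRNPUL2, a U-type hnRNP, was at 10.3 FPKM with the mimic against 15.3 FPKM with the scramble (log2 change -0.53). Its read-through symbol HNRNPUL2-BSCL2, which shares its sequence, was at 27.0 against 26.6 FPKM, and the sum of both was 37.3 against 41.9 FPKM (-0.16). SRSF10, an SR protein that represses splicing when dephosphorylated, was at 7.21 against 10.2 FPKM (-0.45). HNRNPH3 (-0.33), HNRNPDL (-0.31) and SRSF2 (-0.29) followed. The highest was HNRNPH2, a near copy of HNRNPH1 on the X chromosome, at 2.50 against 1.44 FPKM (0.52, counting SE 0.284), a low level. HNRNPC was at 212 against 181 FPKM (0.22), HNRNPLL at 16.8 against 14.3 FPKM (0.22), HNRNPA0 at 23.9 against 20.9 FPKM (0.19) and HNRNPAB at 51.4 against 45.6 FPKM (0.17). In this line the changes of all genes were related to 3' UTR base composition (Spearman's rho with GC content -0.226 across 9791 genes, which are not independent replicates, against -0.0138 in MIA PaCa-2). The 3' UTRs of the 32 genes had a median GC content of 34.9%, against 42.9% for all measured genes. The part of this trend in their values was not tested.

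**Figure D2:**
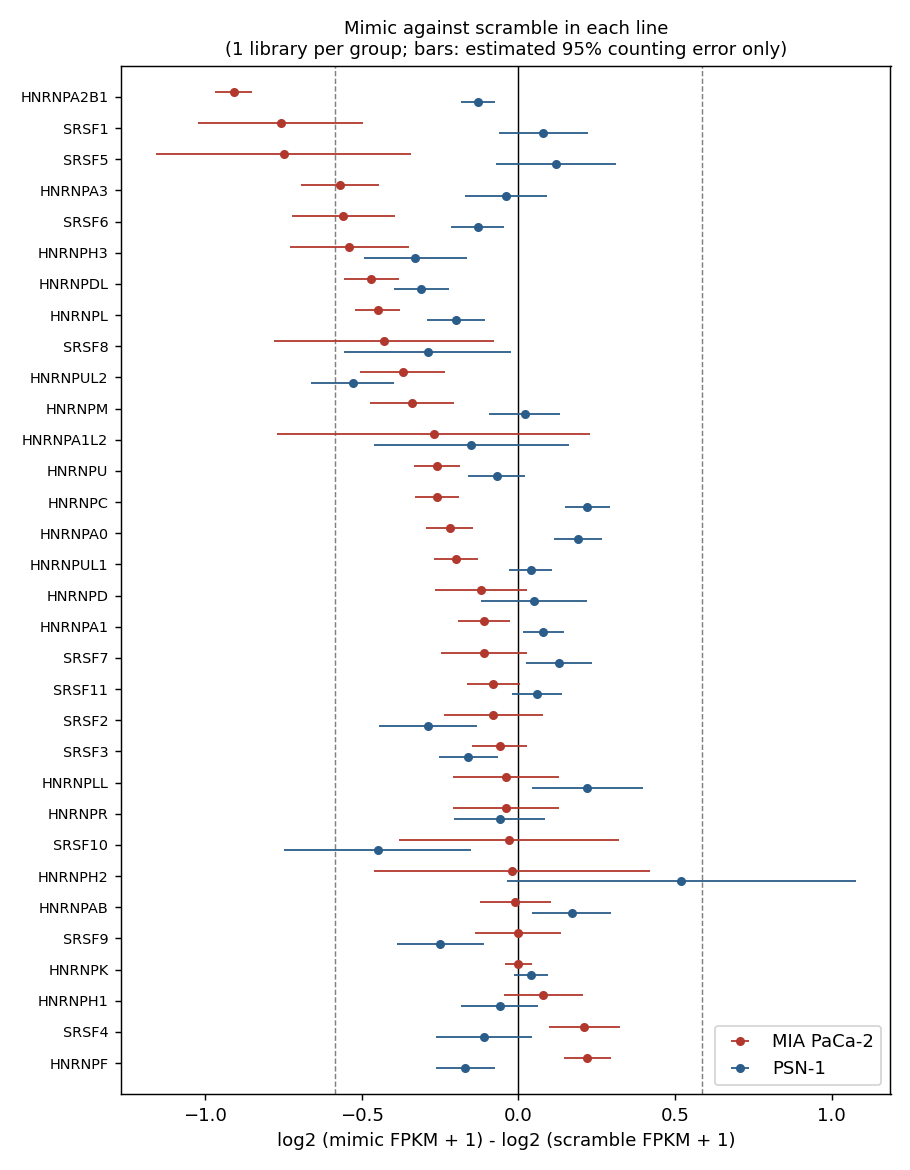
Mimic minus scramble, on the log2(FPKM + 1) scale, for the 32 measured genes in MIA PaCa-2 and PSN-1; bars are estimated 95% counting errors only and dashed lines mark 1.5-fold. HNRNPA2B1 (-0.91), SRSF1 (-0.76) and SRSF5 (-0.75) pass the line in MIA PaCa-2, and no gene passes it in PSN-1.

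HNRNPDL, HNRNPH3, HNRNPUL2 and HNRNPL were among the genes lower in both lines. Of the 32 genes 14 were lower by any amount in both lines (43.8%), against 27.6% of the 10678 genes measured in both. Higher in both lines was 1 of the 32, against 3004 of the 10678. The shares lower in each line alone, 84.4% for MIA PaCa-2 and 56.2% for PSN-1, enter the count of 14. It is therefore no measure of agreement between the lines. The 14 include HNRNPDL (-0.47 for MIA PaCa-2, -0.31 for PSN-1), HNRNPH3 (-0.54 and -0.33), HNRNPUL2 (-0.37 and -0.53), HNRNPL (-0.45 and -0.20) and SRSF8 (-0.43 and -0.29). Limma, fitted to all 10678 genes with a term for the line, which left 1 residual degree of freedom, called none of the 32 at a Benjamini-Hochberg adjusted p under 0.05 (lowest adjusted p = 0.404 in limma, HNRNPDL, mean change -0.39, SE 0.12). At an unadjusted p under 0.05, 5 of the 32 were lower in limma and 0 higher, HNRNPDL, HNRNPH3, HNRNPUL2, HNRNPL and HNRNPA2B1. The same fit called 0.0562% of all genes higher and 0.00937% lower, and before adjustment 534 genes were higher and 526 lower at that threshold. The second line is the only repeat, so these p-values rest on the disagreement between lines. Limma moderates the spread of each gene toward a trend over all genes, so no SE is that of 1 gene alone.

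Other splicing genes were taken from lists of relatives and partners. The counts of lower genes in these lists are to be read beside the shares of all measured genes. Those were 47.8% lower by any amount for MIA PaCa-2, while PSN-1 had 52.4%. Differences of the lists from these shares were not tested. Of 26 measured hnRNP relatives with other names, 19 were lower with the mimic in MIA PaCa-2 (median -0.15), while PSN-1 had 17 lower (median -0.11). RBMX, the X-linked hnRNP G, was at 67.5 FPKM with the mimic against 126 FPKM with the scramble in MIA PaCa-2 (-0.89). In PSN-1 it was at 88.1 against 122 FPKM (-0.46). TAF15, an RNA-binding protein that also associates with the transcription factor TFIID, had 27.3 against 51.5 FPKM (-0.89) in MIA PaCa-2 and a change of -0.22 in PSN-1. FUBP1 was the highest of these lists in MIA PaCa-2, at 28.0 against 17.3 FPKM (0.66). In PSN-1 RALY was at 29.1 against 40.3 FPKM (-0.46), while PTBP2, the neural paralogue of the polypyrimidine tract binding protein, was at 14.3 against 8.67 FPKM (0.67).

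The SR-like proteins and coactivators lay on different sides of 0 in the 2 lines, with 19 of 27 lower (median -0.19) for MIA PaCa-2, while PSN-1 had 9 of 27 (median 0.12). RBM17, a 3' splice site factor, was low in both lines, with 18.8 against 32.9 FPKM (-0.77) for MIA PaCa-2 and 16.3 against 26.9 FPKM (-0.68) for PSN-1. CCNL1, a cyclin of splicing kinases, was at 80.3 against 48.3 FPKM in PSN-1 (0.72). Of 16 kinases, phosphatases and importers of SR proteins 8 were lower in MIA PaCa-2 (median 0.01), and PSN-1 had 4 lower (median 0.09). CLK1, a nuclear SR protein kinase, was at 55.5 against 31.4 FPKM in PSN-1 (0.80) and at 76.6 against 87.2 FPKM in MIA PaCa-2 (-0.18). Core 3' splice site and tri-snRNP factors were lower in 23 of 30 cases in MIA PaCa-2 (median -0.10), while PSN-1 had 9 of 30 lower (median 0.04).

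The remaining lists had medians of 0.14 (tissue-restricted regulators) and -0.13 (nonsense-mediated decay and exon junction) in MIA PaCa-2. In PSN-1 both medians were -0.02. Of the tissue-restricted regulators 4 of 13 were lower in MIA PaCa-2, and PSN-1 had 8 of 15. RBFOX2, which binds GCAUG, had 6.07 against 10.3 FPKM (-0.67) in MIA PaCa-2, and PSN-1 had 6.79 against 12 FPKM (-0.73). MSI2 (0.50) and RBM47 (0.49) were high in MIA PaCa-2. Of the 17 nonsense-mediated decay and exon junction genes 9 were lower in each line, with 23.5 against 15.2 FPKM for SMG9 in MIA PaCa-2 (0.60). EIF4A3, the helicase of the exon junction complex, had 104 against 66.6 FPKM in PSN-1 (0.64). Limma called 0 genes of these lists for the effect shared by both lines.

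**Figure D3:**
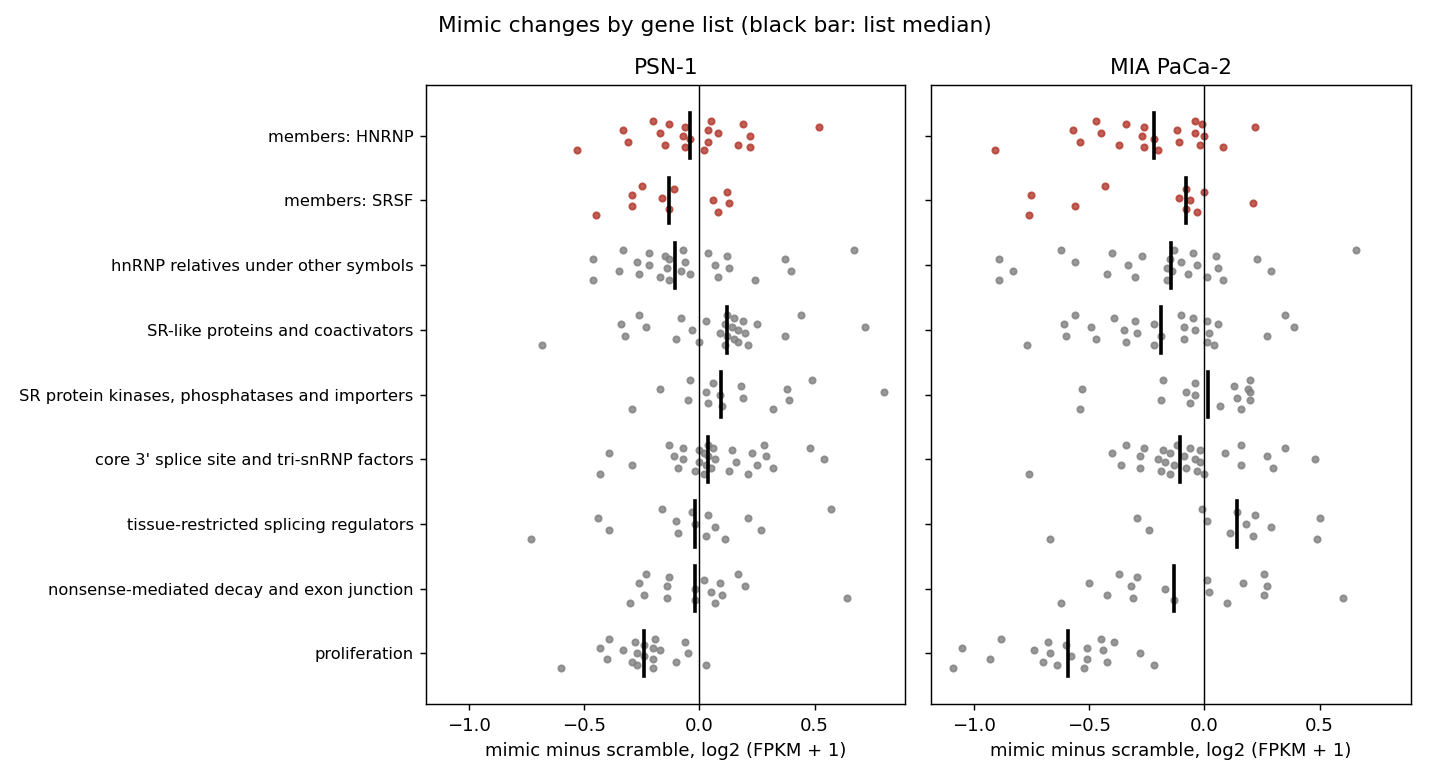
Mimic minus scramble, on the log2(FPKM + 1) scale, for each measured gene of the 2 families and of 7 other lists in PSN-1 and MIA PaCa-2; black bars are list medians. The HNRNP median is -0.04 in PSN-1 and -0.22 in MIA PaCa-2, and the proliferation median is -0.24 in PSN-1 and -0.59 in MIA PaCa-2.

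Between the lines, the contrast within the SR family was wide: SRSF5, SRSF6 and SRSF1 were several-fold higher in PSN-1, while SRSF4 was lower. SRSF5 was at 40.0 and 36.8 FPKM in the PSN-1 mimic and scramble libraries, against 6.65 and 11.8 FPKM in those of MIA PaCa-2 (mean log2 difference 1.99, SE 0.233, adjusted p = 0.0019 in limma). SRSF6 was at 36.8 and 40.3 FPKM in PSN-1, against 8.43 and 12.9 FPKM in MIA PaCa-2 (1.79, SE 0.162, adjusted p = 0.000896 in limma). SRSF1 was at 46.5 and 43.8 FPKM in PSN-1, against 10.5 and 18.6 FPKM in MIA PaCa-2 (1.62, SE 0.226, adjusted p = 0.00331 in limma). For these 3 genes both PSN-1 libraries were above both MIA PaCa-2 libraries. The MIA PaCa-2 mimic library, where they are lowest, enters both this contrast and the mimic contrast; between the scramble libraries alone the log2 differences were 1.56, 1.57 and 1.19.

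SRSF7, an SR protein with a zinc knuckle, was at 67.7 and 61.6 FPKM in PSN-1, against 38.0 and 41.0 FPKM in MIA PaCa-2 (log2 difference 0.70, adjusted p = 0.00716 in limma). SRSF8, a retrocopy of SRSF2, differed by 0.53 at low levels (3.58 and 4.61 against 2.02 and 3.07 FPKM, adjusted p = 0.0492 in limma), and its call was lost in 7 of 11 alternatives, with adjusted p up to 0.362 in limma. SRSF4 was at 27.6 and 29.7 FPKM in PSN-1, against 60.1 and 51.7 FPKM in MIA PaCa-2 (-0.94, adjusted p = 0.00374 in limma). SRSF2, SRSF3, SRSF9, SRSF10 and SRSF11 were not called, with differences between -0.30 and 0.33.

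Of the hnRNP genes, HNRNPA1 (0.66, adjusted p = 0.00293 in limma) and its copy HNRNPA1L2 (1.10) were called higher in PSN-1. Called lower in PSN-1 were HNRNPF (48.0 and 54.1 against 94.2 and 80.6 FPKM, -0.76), HNRNPL (76.9 and 88.7 against 118 and 162 FPKM, -0.74), HNRNPU, a scaffold protein with a SAP domain (42.1 and 44.4 against 63.3 and 75.8 FPKM, -0.67), HNRNPK (-0.66) and HNRNPD, the AU-rich element binding protein AUF1 (-0.48). HNRNPUL1 (0.00), HNRNPH1 (-0.03) and HNRNPA2B1 (0.06) had mean differences near 0. For HNRNPA2B1 that mean covers 0.45 between the mimic libraries and -0.33 between the scramble libraries.

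In all, limma called 7 of 32 genes higher (21.9%) and 6 lower (18.8%) in PSN-1, against 29.2% and 27.3% of the 12423 genes tested, shares near the background whose difference was not tested. The fit used the oligonucleotide as a covariate and had 1 residual degree of freedom. Its p-values rest on the spread between these libraries, moderated by limma across all genes, and not on that between separate cultures. Further fits left out 1 library and held the line alone, without the oligonucleotide, so that 1 line kept a single library. Without either PSN-1 library, the genes called with all libraries lost their calls, and calls among all genes were also fewer. HNRNPH2 (-0.70) was newly called without the PSN-1 mimic. Without the MIA PaCa-2 scramble HNRNPM (0.51) was newly called, and SRSF8, HNRNPD, HNRNPL and HNRNPU were no longer called. SRSF5 differed by 1.62 without the MIA PaCa-2 mimic and by 2.36 without the MIA PaCa-2 scramble. All 13 called genes kept their sign in each of these fits.

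Among the partners, 0 of 16 kinases, phosphatases and importers were called higher and 4 lower in PSN-1 in the same limma fit (against 29.2% of all genes higher and 27.3% lower), among them the SR protein kinase SRPK1, at 14.1 and 13.5 FPKM in PSN-1, against 32.7 and 28.6 FPKM in MIA PaCa-2 (-1.09, adjusted p = 0.00215 in limma). Of 27 SR-like proteins and coactivators 8 were called higher (29.6%) and 7 lower (25.9%), shares close to those of all genes, with TRA2B (0.93) and TRA2A (0.78) among the higher. SRPK1, TRA2A and TRA2B were named after their values were seen.

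**Figure D4:**
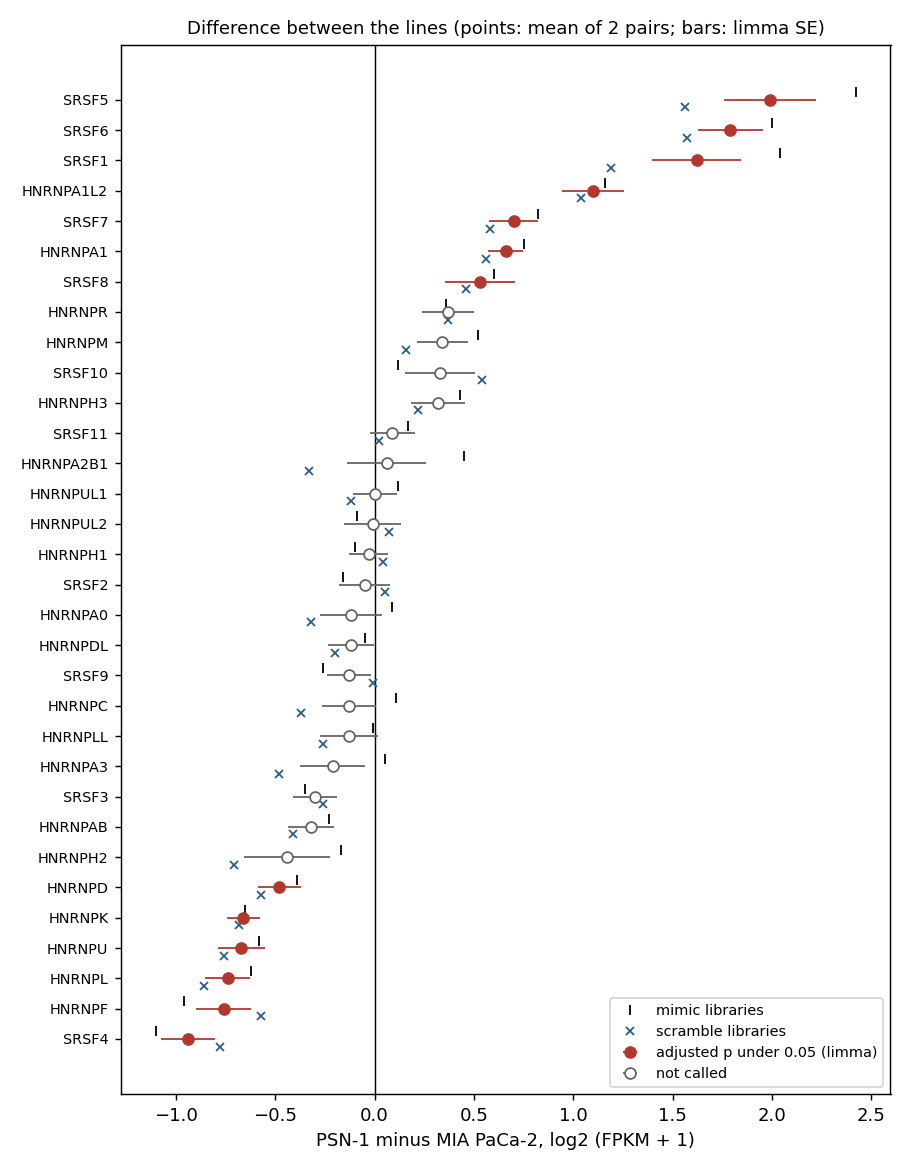
PSN-1 minus MIA PaCa-2, on the log2(FPKM + 1) scale, for the 32 measured genes; circles are the mean over the mimic pair and the scramble pair with limma's SE, filled at adjusted p under 0.05, and the ticks and crosses show the mimic and the scramble pair alone. SRSF5 (1.99), SRSF6 (1.79) and SRSF1 (1.62) lie at the top and SRSF4 (-0.94) at the bottom.

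The 3 SR genes that differed most between the lines are shown with their RefSeq promoter windows, 250 bases before to 50 after the annotated start (GRCh38.p14), with TGACG, the core of a cyclic AMP response element, or its reverse complement CGTCA in capitals.
SRSF1, chr17:58007197-58007496, minus strand: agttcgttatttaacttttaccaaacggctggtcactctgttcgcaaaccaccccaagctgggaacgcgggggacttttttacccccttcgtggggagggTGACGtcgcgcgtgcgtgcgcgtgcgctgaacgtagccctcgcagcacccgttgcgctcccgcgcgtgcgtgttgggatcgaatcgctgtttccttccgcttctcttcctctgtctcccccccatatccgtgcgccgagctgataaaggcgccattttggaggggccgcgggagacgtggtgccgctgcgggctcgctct
SRSF5, chr14:69766892-69767191, plus strand: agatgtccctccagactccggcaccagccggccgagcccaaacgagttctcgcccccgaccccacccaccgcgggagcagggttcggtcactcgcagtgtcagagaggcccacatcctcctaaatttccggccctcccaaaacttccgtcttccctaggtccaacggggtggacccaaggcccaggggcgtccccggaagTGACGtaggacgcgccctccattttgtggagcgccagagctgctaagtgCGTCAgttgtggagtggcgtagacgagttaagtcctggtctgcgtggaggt
SRSF6, chr20:43457646-43457945, plus strand: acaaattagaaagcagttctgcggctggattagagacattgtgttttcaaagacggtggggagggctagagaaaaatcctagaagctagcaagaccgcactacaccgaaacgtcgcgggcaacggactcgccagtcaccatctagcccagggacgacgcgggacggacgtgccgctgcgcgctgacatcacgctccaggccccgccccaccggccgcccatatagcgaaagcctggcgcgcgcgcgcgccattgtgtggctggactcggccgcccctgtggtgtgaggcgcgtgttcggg
These letters occurred in SRSF1 and SRSF5 and not in the window of SRSF6. Over the families, 13 of 30 promoters held them (43.3%), against 36.3% of 8198 promoters of measured genes. Searched on both strands in the same windows, TATAAA was in 16.7% of the 30 promoters against 4.66% of all, CACGTG in 23.3% against 10.6%, CCAAT in 15 of 30 against 37.2%, CCGGAA in 23.3% against 33.0% and GGGCGG in 66.7% against 72.8%. TTTCGCGC and the YY1 motif were in none of the 30, against 0.988% and 3.38%. A match describes the letters of the window only.

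The annotation of the families carries their known link to nonsense-mediated decay. At least 1 transcript of this kind was annotated for all 11 measured SR genes and for 13 of the 21 measured hnRNP genes, together 75.0%, against 45.9% of 9803 measured protein-coding genes; the families also had more annotated transcripts per gene (median 11 against 8). A gene-level FPKM adds the isoforms, so their proportions are not analysed here. Head-to-head neighbours gave a further comparison, since 9 of the measured genes have a measured gene on the opposite strand starting within 1000 bases. In MIA PaCa-2 CBX3, which starts 367 bases from HNRNPA2B1, was at 91.5 against 98.7 FPKM (log2 change -0.11), beside -0.91 for HNRNPA2B1. ENOPH1, the neighbour of HNRNPDL, was at 30.4 against 36.0 FPKM in that line (-0.23), beside -0.47 for HNRNPDL. In PSN-1 ENOPH1 changed by 0.08, beside -0.31 for HNRNPDL. GLA, the neighbour of HNRNPH2, was at 37.9 against 29 FPKM in PSN-1 (0.37) beside 0.52 for HNRNPH2. In MIA PaCa-2 GLA had the same change of 0.37, beside -0.02 for HNRNPH2. DYNLL1 changed by -0.25 in PSN-1, beside -0.25 for SRSF9, and by -0.17 in MIA PaCa-2, beside 0.0. TTC9C changed by -0.21 in PSN-1, beside -0.53 for HNRNPUL2, and by 0.14 in MIA PaCa-2, beside -0.37. No rule fixed in advance picked the pairs described here, and a relation between neighbours was not tested.

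The libraries were of similar depth. Between 15699 and 17294 genes were above 0, and 1 FPKM stood for an estimated 12.9 to 16.3 fragments per kilobase. The keratin gene KRT18 was at 556 and 495 FPKM in PSN-1 and at 718 and 653 FPKM in MIA PaCa-2, with mimic before scramble. KRT8 was at 537 and 665 FPKM, against 737 and 923 FPKM in MIA PaCa-2, and KRT19 at 78.2 and 92.3 FPKM, against 178 and 131 FPKM. KRT7 was at 287 and 406 FPKM in PSN-1 and listed at 0 in MIA PaCa-2. EPCAM was at 28.4 and 24.1 FPKM in PSN-1 and at most 0.139 FPKM in MIA PaCa-2. CDH1 was low in both lines, at 0.72 and 1.51 FPKM, against 0.335 and 0.17 FPKM. Of 5 epithelial markers tested, limma called 2 higher and 3 lower in PSN-1. That fit called 29.2% of all genes higher and 27.3% lower, so such calls were common. The mesenchymal filament gene VIM was at 1235 and 1144 FPKM in PSN-1, against 4401 and 4111 FPKM in MIA PaCa-2. The other mesenchymal markers did not all share that order. FN1 was at 353 and 308 FPKM in PSN-1, against 0.0457 and 0.0696 FPKM in MIA PaCa-2. ZEB1 was at 22.7 and 19.8 FPKM, against 30.5 and 24.1 FPKM, and CDH2 was at most 0.0514 FPKM. The 3 fibroblast markers summed to 65.9 and 79.0 FPKM in PSN-1, against 7.08 and 7.87 FPKM in MIA PaCa-2, and limma called all 3 higher in PSN-1. The part of these markers in the difference between the lines was not tested. The summed level of 4 leukocyte markers was 0.731 to 5.43 FPKM over the 4 libraries and that of 3 endothelial markers 0 to 1.74 FPKM.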

How the data were processed

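RNA was sequenced from 4 libraries, made with a miRNeasy Micro kit and a TruSeq stranded mRNA kit per the labels' protocols. The authors deposited 1 FPKM value for each symbol and library, as their file headers say. Cuffdiff 2.2.1, TopHat2 2.1.1 and the build hg19 appear in the submitters' processing notes, with no role stated. Annotation, strand setting and scaling: not given in the sources used here. Median-ratio factors computed from the FPKM were 0.999 to 1, so the values as given were already level on that scale.

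Changes were taken on log2(FPKM + 1) where the mean reached 1 FPKM. The shared mimic effect (line as block) and the line difference (oligonucleotide as covariate) were fitted with limma 3.58.1 in R 4.3.3, with trend, two-sided, with Benjamini-Hochberg adjustment over all genes. The fits were tested on simulated data. Depth was estimated from the steps of low values, assuming 200-base fragments, and counting errors use the median coding transcript length; they cover counting only. The labels carry no replicate numbers. Sequences came from GENCODE v29 and RefSeq (GRCh38), used by symbol; no coordinates of the files' build are given.

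Named in full were the 5 lowest and 5 highest family genes per line, those called or past 1.5-fold between lines and those with copies, and from other lists the 4 lowest and 4 highest per line at 5 FPKM or more. 1 gene that this rule names is not reported here. The genes and lists were chosen with earlier results of these data known. Alternatives were a pseudocount of 0.1, a filter at 5 FPKM or none, median-ratio and TPM scaling, leaving out short non-coding genes, no trend, no block, and leaving out libraries. Python 3.11.15 with pandas 2.3.3 was used.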

Additional observations from a re-analysis of the deposited data

Results flagged for a closer look

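HNRNPA0, HNRNPA1, HNRNPC and HNRNPF moved in opposite directions in the 2 lines, each by more than 2 estimated counting errors. The change in MIA PaCa-2 minus that in PSN-1 was -0.41 for HNRNPA0 (-0.22 and 0.19), -0.19 for HNRNPA1 (-0.11 and 0.08), -0.48 for HNRNPC (-0.26 and 0.22) and 0.39 for HNRNPF (0.22 and -0.17), on the log2 scale. With 1 library per group these differences were not tested, and counting error leaves out the spread between cultures. HNRNPA1 shares reads with copies, so its values are uncertain.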

How the results depend on the processing

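Of the summary results over all alternatives, 103 stayed within their range and 23 moved. This tally is no measure of robustness, since some of the results could hardly move. Median-ratio scaling, with factors of 0.999 to 1, left the values almost as they were. Some counts of family genes were 0 in the main setting and in its alternatives. The range also let a count of 4 against 3 pass as unchanged. No named gene past 1.5-fold changed sign. In MIA PaCa-2 the genes of the families lower past 1.5-fold numbered 6 with TPM scaling (HNRNPA3, HNRNPH3 and SRSF6 in addition to the 3). The family median of that line also went from -0.16 to -0.21 with this scaling. No share of all genes past 1.5-fold is given for TPM scaling, and the 4.06% of the main setting does not apply. The 6 genes therefore have no background. Otherwise the number was 3 or 4, including without the genes that share reads with a copy, a setting chosen after seeing the data. In PSN-1 there was 1 gene higher past 1.5-fold with a pseudocount of 0.1 and 1 with TPM scaling. For the shared mimic effect limma's calls among all genes, 6 higher and 1 lower, were 13 and 10 with TPM scaling, 0 and 0 without the filter or without the line in the model, and the lower calls were 2 with the filter at 5 FPKM, 6 without short non-coding genes and 0 without trend; none of these settings called a gene of the families. The cause was not tested. The median shared change of -0.12 ranged from -0.16 to -0.06 with a library left out, which leaves the other line. For PSN-1 against MIA PaCa-2, leaving out one library gave 1594 to 2638 genes called higher and 882 to 2097 lower by limma, and 0 to 7 higher and 0 to 6 lower in the families; each such fit has 3 libraries and the line alone in the model, and its lone library is assumed to vary like the others. The fit of the shared effect sets the mimic against the scramble within each line. It is thus paired by line. With 1 library for each line and oligonucleotide no further pairing was possible, and the labels carry no replicate numbers. Depth limits genes such as HNRNPH2, HNRNPA1L2, SRSF5, SRSF8 and SRSF10, whose counting SE reached 0.284, 0.255, 0.208, 0.179 and 0.179.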

Other observations

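Of the 6 symbols with the same prefixes that were left out, HNRNPU-AS1, an antisense RNA next to HNRNPU, was at 12.9 FPKM with the mimic against 8.66 FPKM with the scramble in PSN-1 and at 5.92 against 6.51 FPKM in MIA PaCa-2. HNRNPU itself was at 42.1 against 44.4 FPKM in PSN-1 and at 63.3 against 75.8 FPKM in MIA PaCa-2. Because the strand setting of the counting is not given in the sources used here, reads of overlapping stretches cannot be told apart.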
